A study of Mus musculus with 4 samples.

Results

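The protein import machinery of mitochondria and the Slc25a family of carriers were examined in the spleens of Snd1 knockout (KO) and wild-type (WT) mice. Members were the genes whose annotated symbol starts with Tomm, Timm or Slc25a followed by a number, which gave 61 genes read by 93 probes, of 16590 genes and 25697 probes on the bead array. They comprised 22 translocase genes with 36 probes and 39 carrier genes with 57 probes. A further 11 genes of the mouse reference fit the rule but had no annotated probe, and they were not analysed here. They include Slc25a37, which encodes mitoferrin-1, the iron carrier of red cell precursors, and Slc25a4, which encodes an adenine nucleotide carrier.

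The KO group was 2 female Snd1 KO mice and the WT group 2 female WT mice, all labelled as C57BL/6N and aged 8 to 12 weeks, with 1 array per mouse. In the KO mice the first exon of Snd1 had been removed by Cre recombinase, and the deletion was carried in every tissue rather than in one cell type. The targeted allele was made in stem cells of another mouse strain and backcrossed, so sequence of that strain can remain, around Snd1 or elsewhere. This was not tested. Total RNA came from homogenised pieces of spleen, without sorting of cells. The comparison asked which of these genes differ in level when Snd1, an RNA-binding protein and transcriptional coactivator, is deleted.

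Nearly all mitochondrial proteins are made in the cytosol. The TOM complex of the outer membrane receives them, the small TIM chaperones ferry hydrophobic ones across the intermembrane space, and TIM22 and TIM23 are the translocases of the inner membrane. TIM22 inserts carrier proteins, so the Slc25a family is cargo of the machinery to which it is compared here. The carriers exchange metabolites, nucleotides, phosphate and cofactors across the inner membrane, and in red cell precursors some of them serve heme synthesis.

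Between 12396 and 12908 probes were above background on an array, and the median signal was 112 to 114 intensity units. The 1 Snd1 probe had normalized log2 intensities of 4.45 and 4.58 in KO, not above background, and of 6.71 and 7.09 in WT, so it entered the test through WT alone. Set against the lowest level above background on each KO array, Snd1 was at least 3.87-fold lower in KO on the background-corrected scale. The fitted log2 difference was -2.39, and it was -1.03 without background correction. Its p-value is not given, since the probe passed the filter through WT alone. The markers of B cells, T cells and red pulp macrophages on the array were above background on every array, except Cd8a and Cd5l, which were not on any. Some spleens also carried markers of other tissues. The summed normalized intensity of 7 exocrine pancreas markers was 4731 and 353.8 in KO, against 512.1 and 393.3 in WT, and that of 8 liver markers was 991.7 and 724.2 in KO, against 205.2 and 193.9 in WT. The summed normalized intensity of 8 adipocyte markers was 202.5 and 1603 in KO, against 192.3 and 185.1 in WT, and that of 5 mesothelium markers was 620.2 and 665.2 in KO, against 195.3 and 172.1 in WT. Prss2 of the pancreas, Alb and Fgb of the liver, Lrrn4 and Msln of the mesothelium and Fabp4, Plin1, Retn and Ucp1 of the adipocyte markers were above background on no array, and the adipocyte sum was carried mainly by Adipoq and Car3. Their part in the values below was not tested.

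A gene was tested when a probe was above background, at a detection p under 0.05, on both arrays of at least 1 group. This held for 15 of 22 translocases (68.2%) and 27 of 39 carriers (69.2%), beside 52.5% of all genes on the array. Where a gene had several probes, the one with the highest mean stands for it, and the 42 probes so chosen were above background on all 4 arrays, so none passed through 1 group alone. The untested translocases were Tomm20, Tomm40, Tomm70a, Timm22, Timm23 and Timm8a2, above background on no array, and Timm13, above it on 1 WT array. Thus the main channel subunits of TOM and of both inner membrane translocases, and the receptors Tomm20 and Tomm70a, were not measured. Of the 12 untested carriers, 10 were on no array above background. Slc25a53, just inside the limit, had log2 intensities of 5.003 and 5.49 in KO and of 5.15 and 5.57 in WT. Slc25a34, just outside it, had 4.57 and 5.33 in KO and 4.64 and 5.04 in WT.

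No member passed the adjusted threshold of 0.05 in limma, and the smallest adjusted p of a member was 0.771. Over all genes tested, 0.0229% were called higher in KO and 0.0% lower. At an unadjusted p under 0.05 the count was 0 translocases higher and 1 lower and 0 carriers in either direction, while 3.49% of all genes lay higher and 2.51% lower. With a trend and robust prior no member was called either. The values that follow are therefore a description of 4 arrays, and the differences are not established against the spread between mice.

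The translocases leaned to lower values in KO. Their mean was lower in KO for 13 of 15 genes (86.7%), against 49.3% of all genes, and the median difference was -0.10 on the log2 scale, against 0.0041 over all genes. The middle range of all genes, between the first and last quartile, ran over -0.15 to 0.16, so the median translocase lay within it. The values of the 2 KO arrays both lay below both WT values for 4 translocases and both above for 1, where 17.6% of all genes were lower and 20.6% higher in this way. By complex, differences among which were not tested, the 3 tested TOM subunits Tomm22, Tomm7 and Tomm6 had a median of -0.56, with a range of -2.56 to -0.40, and the 5 small TIM chaperones one of -0.10. The 5 TIM23 genes had a median of -0.048, and Tomm34, a cochaperone of the cytosol that shares the name, had a difference of -0.00063. TIM22 was represented by Timm29 alone, a subunit of that complex, at -0.12. Leaving out Tomm22, which has the lowest value, left the median of the other translocases at -0.091.

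**Figure D1:**
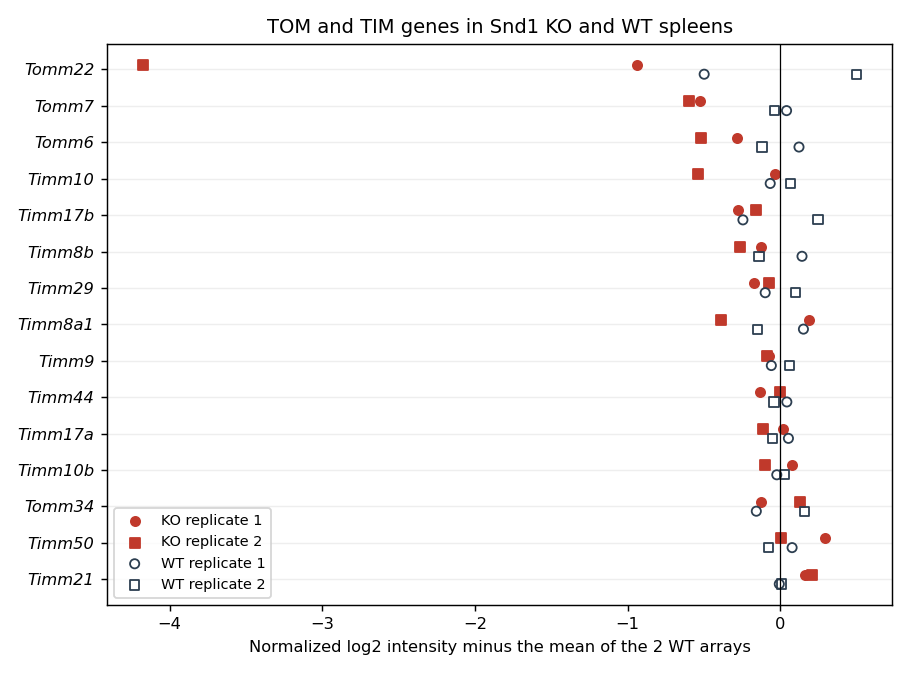
Normalized log2 intensity of the 15 tested translocase genes on each array (x axis), minus the mean of the 2 WT arrays, with genes down the page in the order of their mean difference. Filled red symbols are KO mice and open symbols WT mice, and Tomm22 in KO replicate 2 stands furthest from the WT mean.

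The carriers sat closer to the rest of the genes. The mean was lower in KO for 18 of 27 carriers (66.7%), with a median difference of -0.064. The KO values lay wholly below the WT values for 5 carriers and wholly above for 2, beside 17.6% and 20.6% of all genes. The difference was within 0.25 of 0 for 21 of 27 carriers and for 11 of 15 translocases. The same held for 6186 of all 8716 genes tested. The difference between the translocase and carrier medians was not tested, since the genes share the same 4 arrays. When the first WT array was left out, the carrier median was 0.038 and the translocase median -0.14. When WT replicate 2 was left out, the carrier median was -0.089 and the translocase median -0.097. With median scaling of all arrays they were -0.075 and -0.089. The gap between the medians thus depended on the arrays and on the scaling.

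**Figure D2:**
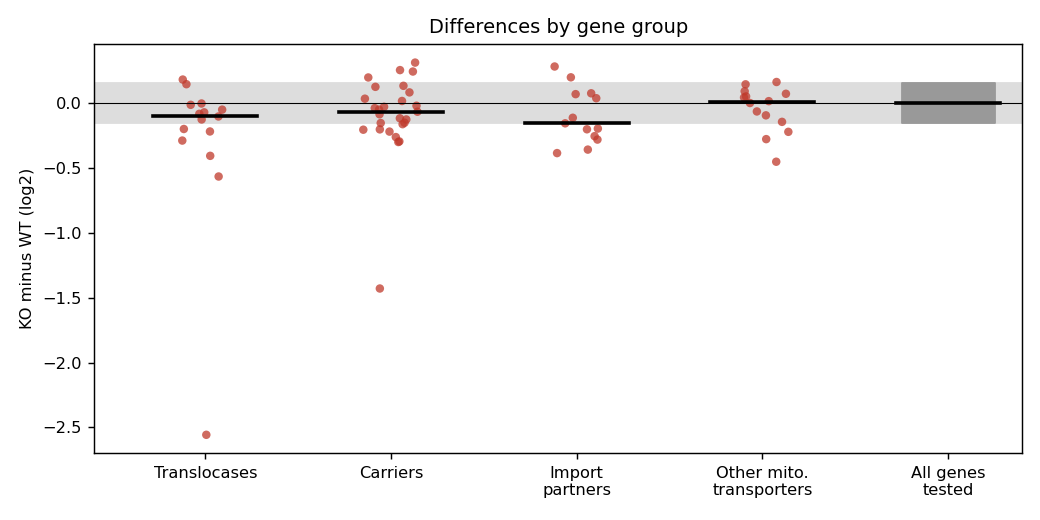
Difference of KO minus WT (log2, y axis) for the tested genes of 4 groups, 1 point per gene, with the median as a black bar and the middle range of all tested genes as a grey band. The medians are -0.10 for translocases, -0.064 for carriers, -0.15 for import partners and 0.010 for other mitochondrial transporters. Mtx2 and Pmpcb of the import partners and Sfxn3 of the other transporters entered the test through WT alone. Without them the medians of these groups are -0.11 and 0.018.

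Tomm22, the central receptor subunit that joins the other TOM receptors to the channel, differed most among the members. Its normalized log2 intensity was 8.58 and 5.34 in KO, against 9.01 and 10.01 in WT. The deposited signal was 466.4 and 125.5 in KO and 587.7 and 1083.6 in WT. The groups did not overlap, but KO replicate 2 lay far below the other 3 arrays, and KO replicate 1 lay closer to the lower WT array than the WT arrays lay to each other. The difference was -2.56 ± 1.07 (log2, SE, n = 2 per group), 5.88-fold lower in KO, with a limma adjusted p of 0.771, and did not reach an unadjusted p of 0.05. Without KO replicate 2 it was -0.94, and without KO replicate 1 it was -4.18. With uncorrected signals the Tomm22 difference was -1.77, or 3.42-fold lower, and at a detection p under 0.01 on all arrays Tomm22 left the test. In whole spleen, fewer cells of a type and less RNA per cell cannot be told apart. Only 1 Tomm22 probe was read, so no other probe bears on this value.

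Slc25a17, a carrier of peroxisomes rather than mitochondria that transports coenzyme A and related cofactors, had a like order of arrays. Its log2 intensity was 7.29 and 5.73 in KO, against 7.52 and 8.35 in WT, a difference of -1.43 ± 0.57 (SE, n = 2 per group, limma adjusted p = 0.771). KO replicate 2 was lowest and WT replicate 2 highest for both genes. The difference of Slc25a17 was -0.65 without KO replicate 2, -2.21 without KO replicate 1 and -0.87, or 1.83-fold lower, without background correction. Tomm22 and Slc25a17 were also the only members at least 2-fold lower in KO by their brightest probe after that correction, beside 0.31% of all genes, and none was 2-fold higher, beside 0.734%.

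**Figure D3:**
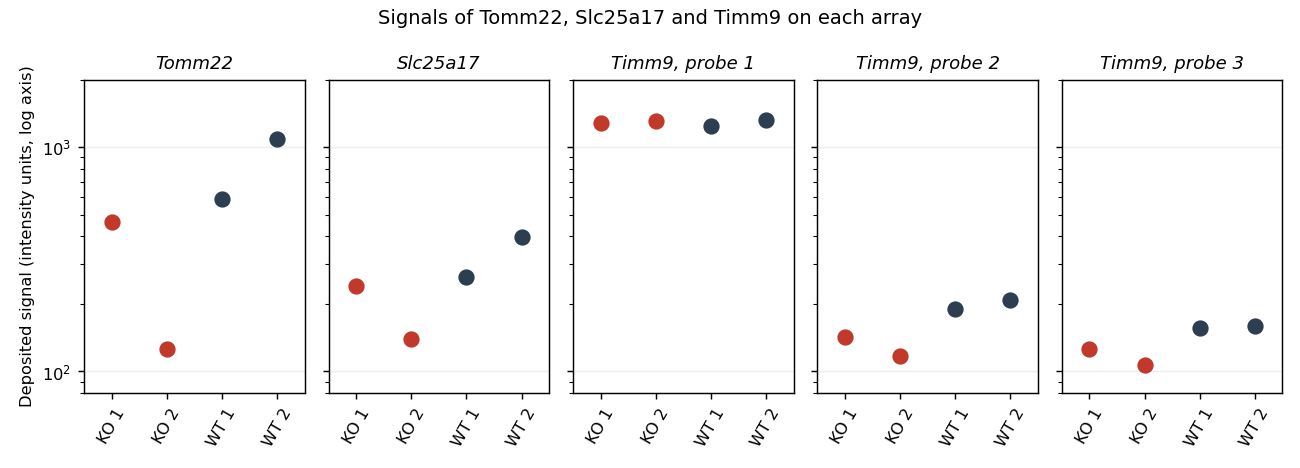
Deposited signal (intensity units, log axis) of Tomm22, Slc25a17 and the 3 tested probes of Timm9 on each array, with KO in red and WT in blue. Tomm22 and Slc25a17 are lowest in KO replicate 2, at 125.5 and 138.9, and the bright Timm9 probe is level over the 4 arrays.

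KO replicate 2 was at least 2-fold below each of the other 3 arrays for 24 genes, or 0.275% of those tested. They included 1 of 15 translocases, Tomm22, and 1 of 27 carriers, Slc25a17. All 6 neutrophil granule markers, such as Mpo and Ltf, were among these 24 genes, and their summed normalized intensity was 3152 and 984.5 in KO, against 5392 and 4190 in WT. The granule markers were highest in WT replicate 1, whereas Tomm22 and Slc25a17 were highest in WT replicate 2. Whether the granule markers play a part in the low values of Tomm22 and Slc25a17 was not tested.

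Both genes lie on chromosome 15, which holds 4.13% of the tested genes and 3 of these 24. All 24 are lowest in KO replicate 2 by the way they were picked. Among them, Zfp985, Fgr, Zfp979 and Cort on chromosome 4 were, like Tomm22 and Slc25a17, highest in WT replicate 2. So were Ear6 on chromosome 14 and Ric8b on chromosome 10. In gene order, 26 genes lie between Tomm22 and Slc25a17, a stretch looked at after its values were seen. Of the 19 tested among them, 14 had a lower mean in KO, beside 49.3% of all genes, and 7 lay wholly below and 1 wholly above the WT values, beside 17.6% and 20.6%. At an unadjusted limma p under 0.05, 4 of the 19 lay lower in KO and 0 higher, beside 2.51% and 3.49% of all genes. Apobec3, which encodes a cytidine deaminase that restricts retroviruses, was the 1 gene of the stretch among the 24. Its log2 intensity was 7.33 and 5.35 in KO, against 7.50 and 8.33 in WT. The other 18 were not at least 2-fold below the other arrays in KO replicate 2. Of these, Cbx7, Pdgfb and Tnrc6b were likewise lowest in KO replicate 2 and highest in WT replicate 2, with smaller gaps. Whether chromosome position plays a part in these values was not tested.

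The promoters of the members were read for letters known from genes of mitochondria. The motif CCGGAAG, bound by GABP (also called NRF-2), was searched on both strands in windows of 300 bases, from 250 before to 50 after the start of the gene, taken from RefSeq on GRCm38.p6. Windows were at hand for 52 of 61 members. The motif was in 9 of 20 translocase windows (45.0%) and 5 of 32 carrier windows (15.6%), beside 11.9% of 17492 protein-coding genes. The palindromic NRF-1 motif was in 0 of 20 translocase and 0 of 32 carrier windows, beside 1.32%, and the GATA motif AGATAA was in 2 of 20 and 2 of 32, beside 9.96%. A match describes the letters and is not shown to be a site. The windows are printed for the members that stood apart most in KO or between the WT mice, with CCGGAAG or its reverse complement in capitals. They are Tomm22 (chr15:79670618-79670917, plus strand), Slc25a17 (chr15:81360716-81361015, minus strand) and Slc25a38 (chr9:120110132-120110431, plus strand).
Tomm22: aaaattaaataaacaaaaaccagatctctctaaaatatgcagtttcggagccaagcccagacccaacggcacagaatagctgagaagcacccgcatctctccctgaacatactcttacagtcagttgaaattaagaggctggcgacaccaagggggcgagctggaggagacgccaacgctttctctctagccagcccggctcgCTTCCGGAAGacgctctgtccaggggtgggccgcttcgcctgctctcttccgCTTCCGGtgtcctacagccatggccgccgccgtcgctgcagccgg
Slc25a17: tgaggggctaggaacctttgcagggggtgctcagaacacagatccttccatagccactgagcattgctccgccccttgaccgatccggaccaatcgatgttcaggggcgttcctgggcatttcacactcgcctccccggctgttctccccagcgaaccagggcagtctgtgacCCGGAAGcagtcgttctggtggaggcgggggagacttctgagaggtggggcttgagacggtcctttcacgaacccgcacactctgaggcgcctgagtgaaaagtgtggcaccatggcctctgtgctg
Slc25a38: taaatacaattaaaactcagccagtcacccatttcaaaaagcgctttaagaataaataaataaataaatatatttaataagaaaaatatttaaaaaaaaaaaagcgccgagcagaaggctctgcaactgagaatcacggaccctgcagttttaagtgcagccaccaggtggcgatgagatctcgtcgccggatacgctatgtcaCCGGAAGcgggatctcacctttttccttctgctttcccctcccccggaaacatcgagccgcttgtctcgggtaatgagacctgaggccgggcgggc
Tomm22 held 3 matches, of which 2 overlap in the palindrome CTTCCGGAAG, and Slc25a17 and Slc25a38 held 1 each. Of the 16 matches in translocases, 15 started between 100 bases before and 50 bases after the start. The 9 translocases with the motif were Tomm22, Tomm34, Tomm70a, Timm10, Timm10b, Timm23, Timm29, Timm8a2 and Timm8b.

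Tomm7 and Tomm6, small subunits that set the stability of the TOM complex, were lower in both KO mice. Tomm7 had log2 intensities of 8.72 and 8.65 in KO, against 9.29 and 9.21 in WT, a difference of -0.56 ± 0.14 (SE, n = 2 per group, limma adjusted p = 0.771). It was the 1 member whose brightest probe lay under an unadjusted p of 0.05. Tomm6 had 7.02 and 6.79 in KO, against 7.43 and 7.19 in WT, a difference of -0.40. For both genes the arrays within a group lay closer together than the group means did. Tomm34, which binds precursor proteins in the cytosol, had 9.80 and 10.06 in KO and 9.77 and 10.09 in WT.

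Among the small TIM chaperones, which hold hydrophobic precursors in the intermembrane space, the result depended on the probe. The brightest Timm9 probe had log2 intensities of 10.20 and 10.19 in KO, against 10.21 and 10.33 in WT, a difference of -0.080. A second, dimmer Timm9 probe had 5.89 and 5.03 in KO, against 6.76 and 7.03 in WT, a difference of -1.43 (limma adjusted p = 0.771). The last tested Timm9 probe had 5.41 and 4.72 in KO, against 6.19 and 6.31 in WT, a difference of -1.19, and was above background on 1 KO array, so that it entered the test through WT alone. The dim probes set the groups far apart, whereas the nearest KO and WT values of the bright probe almost met. The dim differences moved with the correction of background, to -0.66 and -0.46 without it. Which transcripts the Timm9 probes read was not analysed here. The 2 Timm8b probes differed by -0.20 and -0.52, both lower in KO (limma adjusted p = 0.833 and 0.771), and the 3 Timm10b probes ran over -0.11 to 0.19.

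The TIM23 genes had the median nearest to 0 among the complexes. Timm21, a subunit that links TIM23 to the TOM complex and the respiratory chain, had log2 intensities of 9.74 and 9.79 in KO, against 9.57 and 9.59 in WT, a difference of 0.18. Among the brightest probes of the translocases it was the 1 with both KO values above both WT values, which also held for a dimmer probe of Timm10b. The other 3 tested probes of Timm21 had differences of -0.27, -0.21 and -0.010, and the second of these was above background on 1 KO array, entered the test through WT alone and was at -0.068 without background correction. The 3 probes of Timm44, which tethers the import motor to the channel, ran over -0.10 to -0.045. The remaining TIM23 genes, the channel-associated Timm17a and Timm17b and the presequence receptor Timm50, had values that overlapped between the groups.

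Of the carriers whose groups did not overlap, Slc25a17 aside, the differences ran over -0.29 to 0.25. Slc25a11, the oxoglutarate carrier of the malate-aspartate shuttle, had log2 intensities of 9.16 and 9.30 in KO, against 9.46 and 9.59 in WT, a difference of -0.29, while its other 2 probes had 0.043 and 0.15. Slc25a25, a calcium-regulated carrier of ATP-magnesium and phosphate, had 7.12 and 6.76 in KO, against 7.17 and 7.23 in WT, a difference of -0.26. Slc25a15, the ornithine carrier of the urea cycle, had 6.40 and 6.52 in KO, against 6.56 and 6.77 in WT, a difference of -0.20. None of these had an unadjusted limma p under 0.05. Slc25a24, the relative of Slc25a25 with the same substrates, went the other way, with 6.66 and 6.68 in KO, against 6.32 and 6.53 in WT. This was a difference of 0.25, or 0.13 without background correction, while its other tested probe had 0.026 and overlapping groups. Slc25a45 had 10.52 and 10.48 in KO, against 10.32 and 10.41 in WT, a difference of 0.14. The differences of Slc25a25 and Slc25a24 thus had opposite signs, and neither passed the test.

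**Figure D4:**
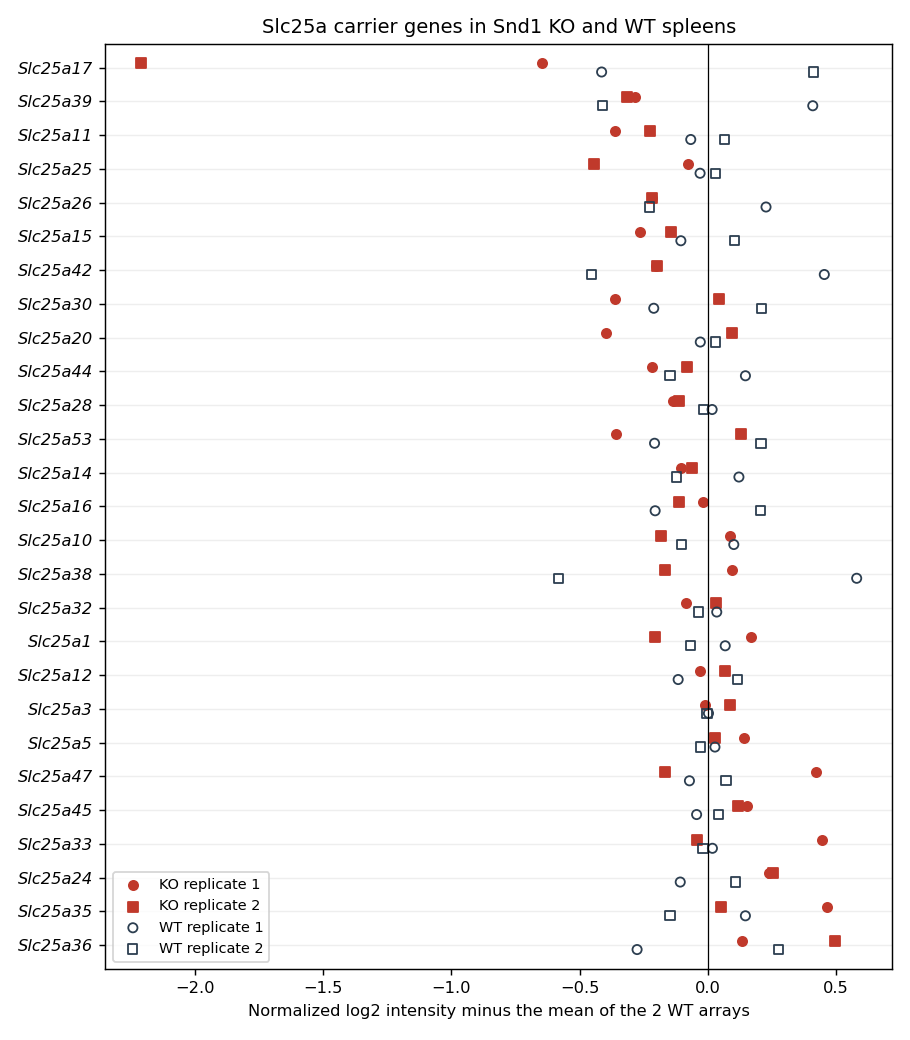
Normalized log2 intensity of the 27 tested carrier genes on each array (x axis), minus the mean of the 2 WT arrays, with genes down the page in the order of their mean difference. Filled red symbols are KO mice and open symbols WT mice, and the WT mice lie furthest apart for Slc25a38, by 1.16.

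Slc25a1, the citrate carrier that feeds lipid synthesis, was read by probes that disagreed. Its brighter probe had 7.96 and 7.58 in KO, against 7.86 and 7.72 in WT, a difference of -0.018, and its dimmer probe had 6.25 and 6.10 in KO, against 5.70 and 5.22 in WT, a difference of 0.72 (limma adjusted p = 0.771), or 0.29 without background correction. The main phosphate carrier Slc25a3 had probes at 0.037 and 0.17, and the carnitine-acylcarnitine carrier Slc25a20, which brings fatty acids in for oxidation, had probes at -0.15 and -0.45. Of the 12 members with more than 1 tested probe, all probes had the same sign in 7, and the probes lay within 0.5 of each other in 10. Timm9 and Slc25a1 were the exceptions.

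The erythroid carriers Slc25a38 and Slc25a39 varied more between the WT mice than their means did between KO and WT. Slc25a38 imports glycine for the first step of heme synthesis, and its brightest probe had log2 intensities of 11.30 and 11.04 in KO, against 11.79 and 10.62 in WT, a difference of -0.036 ± 0.40 (SE, n = 2 per group, limma adjusted p = 0.990). Its other 2 probes had differences of -0.26 and -0.18. Slc25a39, which imports glutathione, had 8.58 and 8.54 in KO, against 9.27 and 8.45 in WT, a difference of -0.30 ± 0.29. In both genes WT replicate 1 was highest and WT replicate 2 lowest, with the KO arrays between them. Slc25a28, or mitoferrin-2, the iron carrier found in most tissues, had 10.86 and 10.89 in KO, against 11.02 and 10.98 in WT, a difference of -0.12 ± 0.14. Its WT arrays differed by 0.034, against 1.16 for Slc25a38 and 0.82 for Slc25a39.

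Erythroid markers differed in the same order between the WT mice. Of 14 such markers on the array, 12 were above background on every array, and Add2 and Epb42 were not on any. The summed normalized intensity of the 14 was 43740 and 49900 in KO, against 65930 and 28470 in WT. Each sum includes the globin gene Hba-a1, nearly level at log2 intensities of 14.51 and 14.57 in KO and of 14.49 and 14.48 in WT. WT replicate 1 exceeded WT replicate 2 by a median of 3.29 over the 12 markers. The values ran from 1.23 for Gata1, a regulator of red cell genes, to 4.33 for Ank1, the red cell ankyrin, leaving out Hba-a1, an alpha globin gene whose signal was 82.1% to 86.5% of the highest on its array and whose difference was 0.0051. The 4 cycling markers were also higher in WT replicate 1, by a median of 2.07. The part of red cell precursors in the carrier values was not tested. The WT arrays lay at least 0.75 apart for 4 of 27 carriers and 1 of 15 translocases, beside 6.23% of all genes. The carriers were Slc25a38, Slc25a39, Slc25a42 and Slc25a17, of which only Slc25a17 was lower in WT replicate 1, and the translocase was Tomm22, which was likewise lower there.

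**Figure D5:**
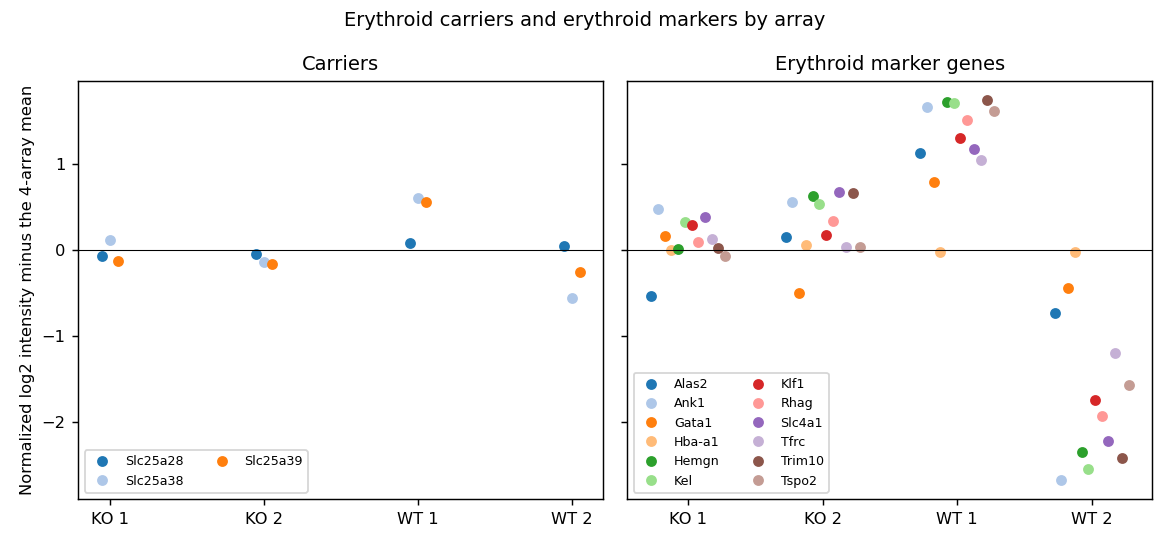
Normalized log2 intensity minus the mean of the 4 arrays (y axis) for 3 erythroid carriers and 12 erythroid markers, 1 point per gene and array. Slc25a38 and Slc25a39 follow the order of most markers, highest in WT replicate 1 and lowest in WT replicate 2, and Slc25a28 is level.

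Other transporters of heme synthesis had the same split between the WT mice, and they are named after their values were seen. Abcb10, an inner membrane transporter needed in red cell precursors, had log2 intensities of 7.80 and 7.95 in KO, against 9.20 and 6.54 in WT. Tmem14c, which moves a heme precursor inward, had 11.82 and 11.85 in KO, against 12.17 and 11.39 in WT. For both, the KO mice lay between the WT mice.

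Among the other genes of the import pathway the differences went both ways. Of 19 import partners, 16 were on the array and 13 were tested, and 0 passed either threshold. Mtx2 and Pmpcb, a subunit of the processing peptidase, were above background on 1 KO array and entered the test through WT alone. Among the other 11, 6 had a lower mean in KO and 5 a higher one, with a median of -0.11, and with Mtx2 and Pmpcb the median was -0.15. Both KO values lay below both WT values for 4 of the 11 and above for 4, beside 17.6% and 20.6% of all genes. Mtx2, a metaxin of the outer membrane assembly machinery, had 4.996 and 4.70 in KO, against 5.18 and 5.29 in WT, a difference of -0.38, or -0.13 without background correction. Pam16, part of the import motor, had 7.84 and 7.38 in KO, against 7.93 and 8.00 in WT, a difference of -0.36, while its second probe had 0.16. Grpel2, a nucleotide exchange factor of the motor, had 5.83 and 6.00 in KO, against 5.67 and 5.59 in WT, a difference of 0.28.

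Of 23 other mitochondrial transporters outside the Slc25a family by symbol, 17 were on the array and 14 were tested, and 0 passed the adjusted threshold. Sfxn3, a serine carrier, entered the test through WT alone, with 1 KO array above background. Among the other 13 the median was 0.018, with 8 higher and 5 lower in KO by the mean. Mtch2, an outer membrane insertase, was the 1 gene at an unadjusted limma p under 0.05. It had log2 intensities of 8.74 and 8.78 in KO, against 9.27 and 9.14 in WT, a difference of -0.45 (limma adjusted p = 0.771), but its other 2 tested probes had 0.15 and 0.031. Sfxn3 had a difference of -0.28, or -0.089 without background correction, and Vdac3, a pore of the outer membrane, had one of -0.22.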

How the data were processed

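Total RNA from the spleens of 2 Snd1 KO and 2 WT mice was hybridised to Illumina MouseRef-8 bead arrays, 1 per sample, described in the methods as biological duplicates. P-values measure only the spread between these samples. The sources used here do not give slide or scan batch. The deposited table holds intensity values, which the authors exported from GenomeStudio without normalization. Its detection columns, deposited as a fraction, rise with the signal (rank correlation 0.975 to 0.991 over probes) and were taken as 1 minus a detection p. A second deposited table, also from the authors, holds log2 values that matched the signals after log2 and quantile normalization for all but 1 probe, with column medians of 6.82. It was uncentred and was used as an alternative.

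Here neqc in limma 3.58.1 (R 4.3.3) corrected the signals by normexp (offset 16), with the level of the negative controls derived from detection, and then applied quantile normalization and log2. Of 25697 probes, 12493 were tested by lmFit and eBayes of limma (degrees of freedom 2 residual, 5.04 in total), two-sided and unpaired, with Benjamini-Hochberg adjustment over all of them at 0.05. An exact permutation test of 2 against 2 arrays, two-sided, cannot go below 0.333 and was not used. The fit was tested on simulated data. Gene names came from the array annotation, with 8 symbols updated through a GRCm38.p6 table, and 23978 probes had 1 symbol. The members and gene lists were chosen with earlier results of these data known. Genes were named by a fixed rule: Tomm22, the erythroid carriers, the 5 members in each direction and class with the largest difference among those whose groups did not overlap, members with several probes, the 3 genes of smallest p in each list, and Snd1. Genes named outside it are said to be so or serve to show what was not measured. The alternatives were other background, offset, scaling, filter, prior and probe choices, the value table, the replicate block, and leaving out each array.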

Additional observations from a re-analysis of the deposited data

How the results depend on the processing

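No member passed the adjusted threshold under any of the 13 alternatives run, and the smallest adjusted p of a member was 0.541 to 0.953 over them. Over all probes, 2 were called higher in KO and 0 lower. A trend and robust prior called 7 higher and 1 lower, median scaling 5 higher, and the larger offset of 50 called 4 higher. The count called higher was 0 when background was not corrected, when the value table was used and when no filter was set. Leaving out 1 array gave 0 to 13 higher, with 13 without WT replicate 1, and 0 to 1 lower. With the replicate number as a block, 0 probes were called higher. Deviations of same-numbered arrays correlated at 0.188, and with 2 numbers this does not show that they pair mice. The translocase median was -0.12 to -0.085 with all arrays and -0.14 to -0.097 with 1 array left out. The carrier median was -0.075 to -0.030 with all arrays and -0.089 to 0.038 with 1 array left out, its sign turning without WT replicate 1. Translocases with a lower mean numbered 12 or 13 of 15 with all arrays under the usual filter and 10 to 12 with 1 left out, and carriers 11 to 17 of 27 with 1 left out. The import partner median was -0.25 to -0.035 and that of other transporters -0.14 to 0.055 with 1 array left out, and other transporters were at -0.085 with the mean of all probes. With that mean Slc25a1 was at 0.35 and Timm21 at -0.077. Tomm22 was -2.56 to -1.77 with all arrays where it was tested. Slc25a38 was -0.62 to 0.54 and Slc25a39 -0.71 to 0.11 with 1 array left out. The fitted Snd1 difference was -2.39. It was -1.44 with the offset of 50, and -1.03 both without background correction and with the value table. Its p-values are not given, since the probe passed the filter through WT alone, the group where it is high. The number of arrays limits every value, and dim probes such as those of Timm9 lie close to background, where the log2 difference moves with the correction.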
